A study of Homo sapiens with 6 samples.

Results

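Histone lysine demethylases remove methyl groups from the tails of histones, and the 10 genes described here, KDM2A, KDM2B, KDM3A, KDM3B, KDM4A, KDM4B, KDM4C, KDM5A, KDM5B and KDM6B, encode enzymes of the JmjC class. They were taken by symbol from a list, and all 10 were found among the 62703 gene IDs of the deposited table. The RNA came from an osteosarcoma cell line of human origin, MNNG/HOS Cl #5, labelled as wild type and kept in high-glucose medium with glutamine, serum and antibiotics. In 3D, these cells had spent 7 days in a scaffold of demineralized bone matrix (3 libraries), and in 2D they had spent 7 days in flat culture (3 libraries). The labels describe no other treatment. Every library comes from this same cell line, and nothing in the labels says whether the 3 libraries of a group were separate cultures, so p-values measure the spread between libraries, which may be technical.

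JmjC enzymes need molecular oxygen, ferrous iron and 2-oxoglutarate, an intermediate of the tricarboxylic acid cycle, and they release succinate and formaldehyde with each methyl group removed. The subfamilies differ in the lysine of histone H3 that they act on. KDM2A and KDM2B act mainly on H3K36, KDM3A and KDM3B on H3K9, KDM4A, KDM4B and KDM4C on H3K9 and H3K36, KDM5A and KDM5B on H3K4, and KDM6B on H3K27. Methylation of H3K4 is found at active promoters, that of H3K36 along transcribed genes, and that of H3K9 and H3K27 at silenced chromatin. KDM3A and KDM4B are also known as genes that hypoxia-inducible factors (HIF) switch on in many cell types.

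The table gives FPKM, fragments scaled to gene length and library total. Levels of different genes set side by side thus depend on the gene lengths used. Those worked out from the values were 5701 bases for KDM4A and 20343 for KDM4B, where GENCODE 29 exons give 5172 and 14716. In 2D, KDM4B had more reads than KDM4A in every library (2149 to 2313 against 745 to 1052) but a lower FPKM. The 3D libraries held 13334218 to 16363570 reads, worked out from the values, against 13652957 to 14241462 in the 2D libraries, and a gene among the 10 rested on 176 to 5327 reads in a library. The test was limma on log2(FPKM + 1), for the 12843 genes that reached 1 FPKM in 3 or more libraries, and all 10 were among them. Of all genes tested, 33.3% were called higher in 3D and 18.1% lower, at an adjusted p under 0.05, and the median log2 change was 0.14. The markers listed for the mesenchymal and osteoblast lineage were only partly present. VIM stood at 291.2 to 296.6 FPKM in 3D and 514.0 to 744.4 in 2D, COL1A1 at 36.6 to 50.03 in 3D and 7.26 to 10.1 in 2D, while SP7 was at most 0.00822 FPKM and ALPL at most 0.0475 in every library, and TWIST1, at 7.54 ± 1.19 FPKM in 3D and 9.31 ± 0.955 in 2D (SD, n = 3 each), did not pass. SPARC, at 47.9 to 56.2 FPKM in 3D and 49.7 to 59.4 in 2D, did not pass either. The rest of that list was under the filter. RUNX2, COL1A2 and SPP1 had means of 2.19, 1.24 and 1.40 FPKM in 3D and 0.648, 0.217 and 0.302 in 2D. IBSP and BGLAP had means of 0.0154 and 0.200 FPKM in 3D and 0.0761 and 0.563 in 2D. Among markers of other cell types, the summed leukocyte list stood at 4.2 to 6.52 FPKM in 3D and 17.9 to 25.5 in 2D, with 1 of its 5 genes called, CD68 (3.42 ± 0.93 FPKM in 3D and 19.1 ± 2.73 in 2D, SD, n = 3 each), while CD3E was at 0 and PTPRC at most 0.0337. LYZ and CD14 did not pass. Red cell genes summed to 2.44 to 8.16 FPKM in 3D and 2.42 to 30.2 in 2D, with none of the 3 (HBB, HBA1 and HBA2) called. Endothelial, adipocyte and osteoclast markers summed to at most 0.293, 1.44 and 0.245 FPKM, epithelial and chondrocyte markers to at most 1.68 and 1.34, and whether other cells contribute to the results was not tested.

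In the scaffold, 4 of the 10 demethylase genes fell, 1 rose and 5 did not pass. KDM3A fell most, to 1.12 ± 0.444 FPKM in 3D against 4.04 ± 0.137 in 2D (SD, n = 3 each). KDM4B, KDM4C and KDM5B fell by smaller amounts, KDM4A rose, and KDM6B just missed the threshold. By FPKM, the genes that fell stood below their partners KDM3B, KDM4A and KDM5A in every library of both groups. Those partners rose or did not pass. This order depends on the gene lengths used, and by reads KDM4B was above KDM4A in 2D. KDM2B was also the less abundant of its pair but did not pass. It had 1.66 FPKM in 3D and 1.82 in 2D, where KDM2A had 12.6 and 11.3. In all, 5 of 10 were called in either direction, a share near the 51.4% of all genes tested. The members called lower (4 of 10) stood beside 18.1% of all genes, and the member called higher (1 of 10) beside 33.3%. With median-ratio scaling 5 members were lower and 1 higher, where 24.5% of all genes were lower and 24.5% higher. The median log2 change of the 10 was -0.28, against 0.14 for all genes tested, and with so few genes this is a description of the list only. The 3D values lay wholly below the 2D values for 6 members and wholly above them for 1, where 21.9% of all genes tested lay below, 39.0% above and 60.9% in either direction.

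**Figure D1:**
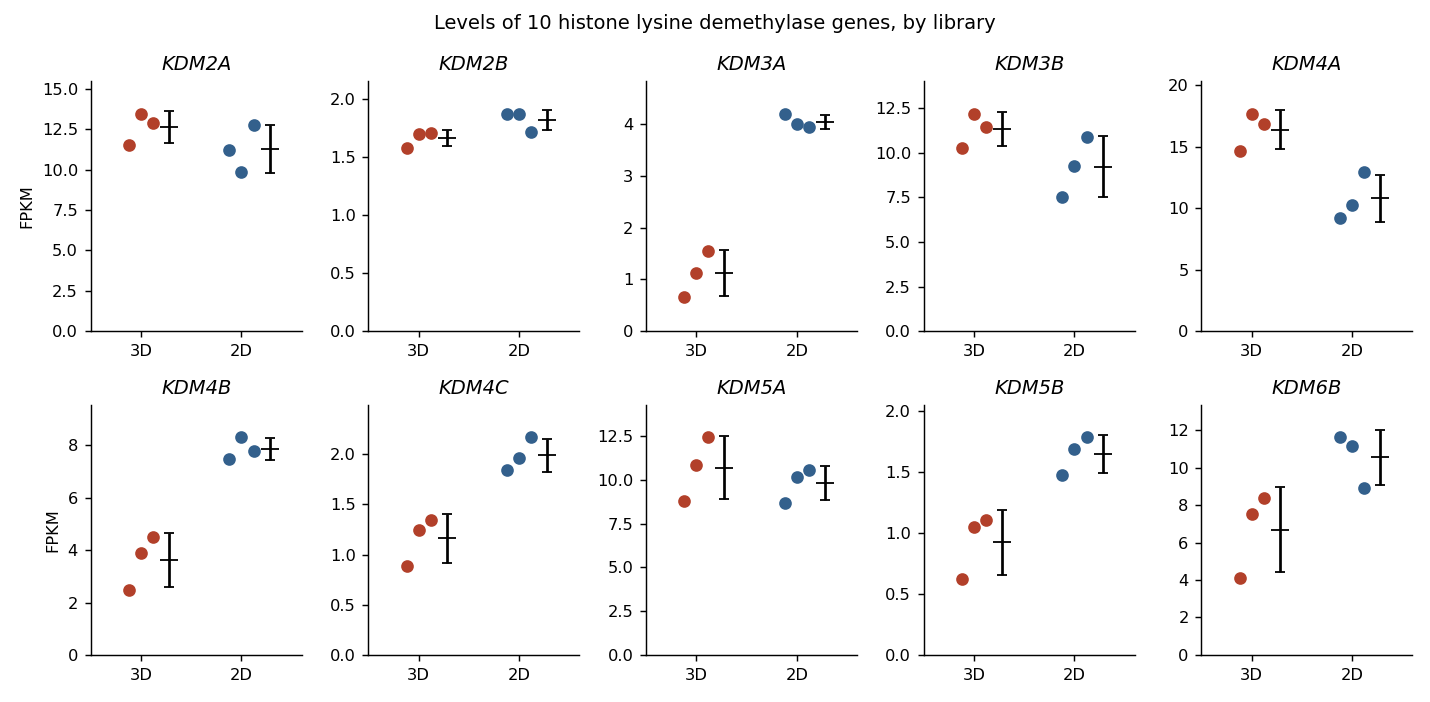
FPKM of the 10 genes in each library (points), with the mean and SD of the group (n = 3) beside them; 3D libraries stand on the left of each panel and 2D libraries on the right, and each panel has its own axis from 0. KDM2B, KDM3A, KDM4B, KDM4C, KDM5B and KDM6B show 3D points wholly below the 2D points, by a small margin for KDM2B and KDM6B, and KDM4A shows the opposite.

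KDM3A and KDM3B remove mono- and dimethylation from H3K9. KDM3A (ENSG00000115548, chromosome 2, 86440647 to 86492716, GRCh38 as in GENCODE 29, as are all gene positions here) had 0.669, 1.13 and 1.56 FPKM in the 3 libraries of 3D, against 4.2, 3.99 and 3.94 in 2D. The highest 3D library thus lay below the lowest 2D library. The ratio of mean FPKM was 0.277, a 3.61-fold lower level in 3D, and limma gave a change of -1.27 on the log2(FPKM + 1) scale (SE 0.16, adjusted p = 0.000893). KDM3B (chromosome 5, 138352596 to 138437028), its close relative, had 10.3, 12.2 and 11.5 FPKM in 3D, against 7.52, 9.24 and 10.9 in 2D. These ranges overlapped, and the log2 change was 0.28 with a 95% interval of -0.05 to 0.61 (limma adjusted p = 0.134). With the deposited scaling this leaves room for a modest rise and little for a fall. With median-ratio scaling the change was only 0.11 (limma adjusted p = 0.515).

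The KDM4 enzymes remove di- and trimethylation from H3K9 and H3K36, and their genes moved in both directions. KDM4A (chromosome 1, 43650158 to 43705515) had 14.6, 17.7 and 16.9 FPKM in 3D, against 9.24, 10.2 and 12.9 in 2D. All 3D libraries lay above all 2D libraries, and the ratio of means was 1.52 (log2 change 0.57, SE 0.14, limma adjusted p = 0.0122). KDM4B (chromosome 19, 4969113 to 5153595) had 2.48, 3.88 and 4.51 FPKM in 3D, against 7.47, 8.3 and 7.77 in 2D. It was 2.17-fold lower in 3D by the ratio of means, without overlap between the groups (log2 change -0.96, SE 0.17, limma adjusted p = 0.00344). KDM4C (chromosome 9, 6720863 to 7175648) had 0.89, 1.25 and 1.35 FPKM in 3D, against 1.84, 1.96 and 2.17 in 2D. It too fell without overlap, 1.71-fold by the ratio of means (log2 change -0.47, SE 0.11, limma adjusted p = 0.0107). KDM4A and KDM4B share substrates. By FPKM they stood at 16.4 ± 1.59 and 3.62 ± 1.04 in 3D, and at 10.8 ± 1.9 and 7.85 ± 0.422 in 2D (SD, n = 3 each). The gap between them depends on the gene lengths used. By reads, KDM4A had 1115, 1391 and 1579 in 3D and KDM4B 674, 1088 and 1508. In 2D KDM4B had the more reads (2149 to 2313 against 745 to 1052).

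The promoter windows of KDM3A and of the KDM4 genes are given because KDM3A had the largest log2 change of the 10 genes and the KDM4 genes are a subfamily whose members moved in both directions. Each runs from 250 bases before to 50 after a start of the gene in RefSeq (GRCh38.p14), 5′ to 3′ on the strand of the gene, which is the plus strand for all of them. The windows are chr2:86441121-86441420 for the first of 2 KDM3A starts, chr1:43649899-43650198 for KDM4A, chr19:4968863-4969162 for KDM4B and chr9:6757723-6758022 for KDM4C. Capitals mark ACGTG and GCGTG, the cores of the element bound by HIF, on either strand, and CACGTG, an E-box that holds ACGTG on both strands.
KDM3A: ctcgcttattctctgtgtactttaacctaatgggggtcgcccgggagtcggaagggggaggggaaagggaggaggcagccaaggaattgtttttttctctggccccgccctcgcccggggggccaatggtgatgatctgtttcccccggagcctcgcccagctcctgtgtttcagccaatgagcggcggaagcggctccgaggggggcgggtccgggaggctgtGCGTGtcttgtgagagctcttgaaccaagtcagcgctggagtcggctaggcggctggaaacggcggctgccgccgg
KDM4A: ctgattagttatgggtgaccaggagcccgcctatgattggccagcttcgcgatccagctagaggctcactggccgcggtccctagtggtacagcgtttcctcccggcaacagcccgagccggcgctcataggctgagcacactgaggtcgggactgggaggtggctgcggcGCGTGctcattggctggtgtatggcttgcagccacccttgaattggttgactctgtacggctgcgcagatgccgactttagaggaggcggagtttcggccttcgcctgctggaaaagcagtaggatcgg
KDM4B: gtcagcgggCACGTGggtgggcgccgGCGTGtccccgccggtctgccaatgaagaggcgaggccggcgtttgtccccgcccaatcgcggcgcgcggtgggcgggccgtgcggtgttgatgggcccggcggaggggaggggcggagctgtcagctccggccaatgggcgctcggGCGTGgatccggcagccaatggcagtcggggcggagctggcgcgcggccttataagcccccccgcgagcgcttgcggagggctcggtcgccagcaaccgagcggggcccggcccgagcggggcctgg
KDM4C: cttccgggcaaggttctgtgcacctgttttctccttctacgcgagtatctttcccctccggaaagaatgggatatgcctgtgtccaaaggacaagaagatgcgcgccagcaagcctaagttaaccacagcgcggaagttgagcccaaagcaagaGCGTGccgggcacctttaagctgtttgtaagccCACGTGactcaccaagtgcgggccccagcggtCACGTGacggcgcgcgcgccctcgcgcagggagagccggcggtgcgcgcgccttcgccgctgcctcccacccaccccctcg
Positions count from the start of the gene, negative before it, and give the first base of a motif. KDM3A holds a single GCGTG, at -26, and the window of its second start holds the same one. KDM4A also holds a single GCGTG, at -79. KDM4B holds 1 CACGTG and 2 GCGTG, and KDM4C holds 2 CACGTG, at -63 and -31, and 1 GCGTG. Over the 16 windows of the 10 genes, GCGTG was found in 12 (75.0%, against 36.5% of 35116 windows of all genes), ACGTG in 3 (18.8% against 21.4%) and CACGTG in 2 (12.5% against 7.3%). The E2F motifs TTTGGCGC and TTTCGCGC were in none of the 16, against 1.1% of all windows. Either core was in 13 of the 16 windows (81.2%, against 48.4% of all windows), the site of KDM3A being counted in both of its windows. Of the 10 genes, 9 had ACGTG or GCGTG in a window, KDM3B being the exception, and 4 genes had several windows. The motif was thus present in genes that fell, in KDM4A, which rose, and in genes that did not pass. A match of letters is not evidence of binding, and the windows of genes with several starts can overlap. KDM2B held GCGTG in several of its windows. The windows were not matched to those of all genes for their content of G and C. The share of all genes with either core in a window was not worked out.

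KDM5A and KDM5B remove di- and trimethylation from H3K4. KDM5A (chromosome 12, 280129 to 389454), which was first described as a partner of the retinoblastoma protein, had 8.82, 10.8 and 12.4 FPKM in 3D, against 8.7, 10.2 and 10.6 in 2D. The groups overlapped, and the log2 change was 0.11 with a 95% interval of -0.22 to 0.43 (limma adjusted p = 0.544). KDM5B (chromosome 1, 202724495 to 202809470), whose protein marks slow-cycling cells in melanoma, had 0.62, 1.05 and 1.11 FPKM in 3D, against 1.48, 1.69 and 1.79 in 2D. It was 1.78-fold lower in 3D by the ratio of means without overlap (log2 change -0.47, SE 0.13, limma adjusted p = 0.0178). That call was lost without 2D replicate 2 or 2D replicate 3 (limma adjusted p of 0.0516 and 0.0536), and when low values were not filtered (0.0501).

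KDM2A and KDM2B carry a CXXC zinc finger that binds unmethylated CpG islands, and neither passed the test. KDM2A (chromosome 11, 67119269 to 67258087) had 11.5, 13.5 and 12.9 FPKM in 3D, against 11.3, 9.83 and 12.8 in 2D. The groups overlapped (log2 change 0.15, 95% interval -0.12 to 0.43, limma adjusted p = 0.312). KDM2B (chromosome 12, 121429097 to 121581015), which brings a Polycomb complex to CpG islands, had 1.58, 1.7 and 1.71 FPKM in 3D, against 1.87, 1.87 and 1.72 in 2D. The 3D values lay just below the 2D values, but the log2 change of -0.08 (95% interval -0.28 to 0.11) did not pass (limma adjusted p = 0.442).

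KDM6B (chromosome 17, 7839904 to 7854796), also known as JMJD3, removes methylation from H3K27 and is induced by inflammatory signals in macrophages. It had 4.1, 7.53 and 8.4 FPKM in 3D, against 11.6, 11.2 and 8.9 in 2D. The groups did not overlap, but 3D replicate 1 was far below the other 3D libraries, and the log2 change of -0.63 (SE 0.24, 95% interval -1.19 to -0.08) missed the threshold (limma adjusted p = 0.0587). It passed with median-ratio and upper-quartile scaling (limma adjusted p = 0.0322 and 0.0331), with a minimum mean of 5 FPKM (0.047) and without 3D replicate 3 (0.0368). Without 3D replicate 1 the log2 change was only -0.36 (limma adjusted p = 0.0693).

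**Figure D2:**
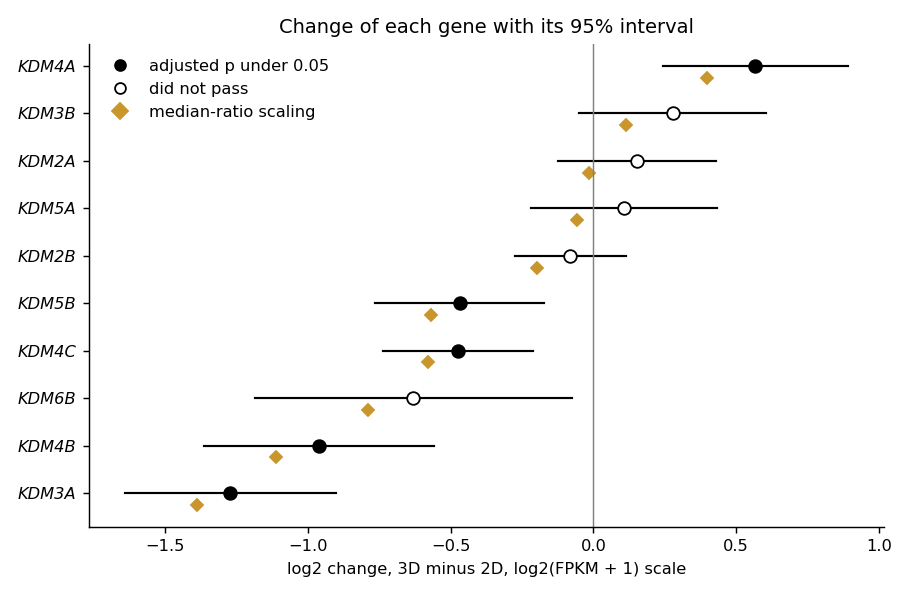
Log2 change of each gene, 3D minus 2D, on the log2(FPKM + 1) scale, with its 95% interval from limma; filled circles passed at an adjusted p under 0.05, and diamonds give the change with median-ratio scaling. KDM3A lies lowest at -1.27 and KDM4A highest at 0.57, and every diamond lies below its circle in value, with all 5 calls kept.

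All 10 genes had their lowest 3D value in 3D replicate 1, as did 17 of the 18 listed hypoxia targets, whereas 36.4% of all genes tested did. On the log2(FPKM + 1) scale, that library lay below the mean of the other 3D libraries by 0.81 for KDM6B, 0.58 for KDM4B, 0.48 for KDM3A and 0.07 for KDM2B. The genes are long, and 8 of the 10 were among the 4280 longest of the genes tested (at least 9969 bases). Over those 4280 the median of the same difference was -0.04, and over the 4281 shortest it was 0.09. The part of length in the low values of that library was not tested. Without 3D replicate 1 the same genes were called, with 4 lower and 1 higher, and the log2 changes were -1.11 for KDM3A, -0.77 for KDM4B, -0.38 for KDM4C, -0.35 for KDM5B and 0.64 for KDM4A.

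The setting of log2(FPKM + 1) understates the changes of the least abundant genes. Voom on the worked-out reads adds a small constant to reads and none to FPKM. With it the log2 changes were -1.91 for KDM3A, -0.86 for KDM5B and -0.78 for KDM4C, and the same 5 genes were called. Parts of 6 genes overlap other annotated genes, and since strand is not stated for the counting, reads of these may be included. The exons of KDM2B share 439 bases with RNF34 on the opposite strand (6.07 to 6.51 FPKM in 3D, 3.58 to 3.69 in 2D), those of KDM5A share 182 bases with CCDC77 (2.46 to 2.94 FPKM in 3D, 1.89 to 2.38 in 2D), and those of KDM4A share 464 bases with KDM4A-AS1 (0.322 to 0.49 FPKM in 3D, 0.192 to 0.246 in 2D) and 2077 with AL451062.3, which was at most 0.0723 FPKM. Exons of KDM4C share 135 bases with AL354707.1 (at most 0.0902 FPKM). Other genes lie within these genes without sharing exon bases, among them the pseudogenes AC098934.3 in KDM5B (3.05 to 3.85 FPKM in 3D, 3.35 to 6.26 in 2D) and SNRPEP2 in KDM4C (0.804 to 2.18 FPKM in 3D, 2.01 to 2.28 in 2D). The part of overlapping genes in the results was not tested. KDM3A, KDM3B, KDM4B and KDM6B overlap no other annotated gene.

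The makeup of each subfamily was described by ratios between its members. A ratio of 2 genes within the same library does not depend on how libraries are scaled. KDM3A stood at 0.0651, 0.0929 and 0.136 of KDM3B in 3D, against 0.558, 0.432 and 0.361 in 2D, a difference in mean log2 ratio of -2.24. KDM4B stood at 0.169, 0.219 and 0.268 of KDM4A in 3D, against 0.808, 0.811 and 0.602 in 2D (difference -1.77). KDM4C stood at 0.0609, 0.0704 and 0.0799 of KDM4A in 3D, against 0.199, 0.192 and 0.168 in 2D (difference -1.41). KDM5B stood at 0.0702, 0.0965 and 0.0891 of KDM5A in 3D, against 0.17, 0.166 and 0.169 in 2D (difference -0.99). In each of these 4 pairs all 3D ratios lay below all 2D ratios. That gives an exact 2-sided permutation p of 0.1, the smallest that 3 libraries against 3 allow. Every such pair holds a gene already called lower, and KDM4A is in both KDM4 pairs, so they add no independent result. Of single genes tested, 60.9% had groups that did not overlap, and the share among ratios of other gene pairs was not worked out. The ratio of KDM2A to KDM2B was 7.29, 7.91 and 7.52 in 3D, against 6.03, 5.25 and 7.45 in 2D, and these overlapped (exact permutation p = 0.2). Over the 5 pairs, Benjamini-Hochberg adjustment of the exact permutation p-values gave 0.125 for each of the 4, so no pair passed.

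**Figure D3:**
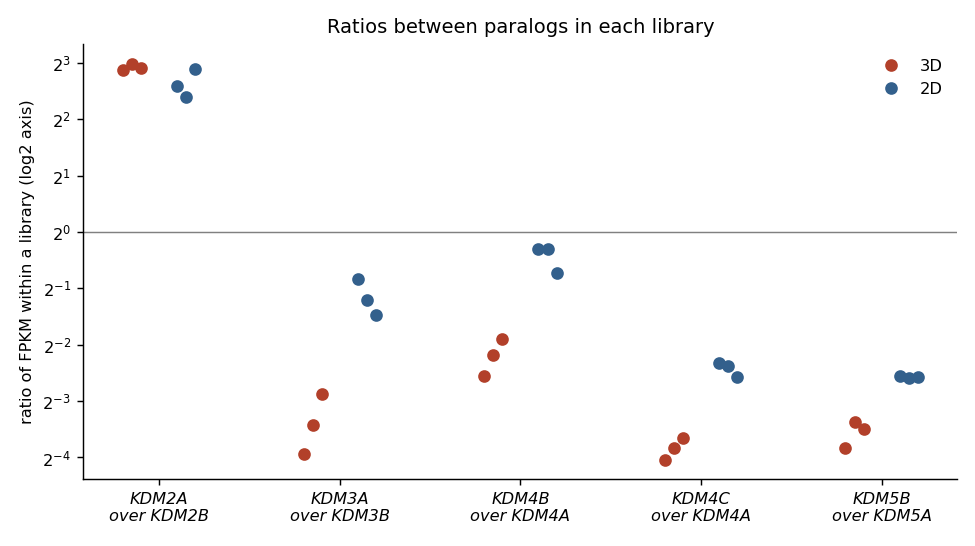
Ratio of the FPKM of 2 genes of a subfamily within each library, on a log2 axis, with 3D libraries left of 2D libraries for each pair. KDM3A over KDM3B, KDM4B and KDM4C over KDM4A, and KDM5B over KDM5A are lower in every 3D library than in any 2D library.

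The summed FPKM of the KDM2, KDM3, KDM4 and KDM5 genes overlapped between the groups. In every library KDM2A, KDM3B, KDM4A and KDM5A made the largest part of their sums by FPKM. Both statements depend on the gene lengths behind FPKM. By reads, KDM4B exceeded KDM4A in every 2D library (2149 to 2313 against 745 to 1052). Sums of reads were not tested. KDM4A, KDM4B and KDM4C together made 17.98, 22.8 and 22.7 FPKM in 3D, against 18.6, 20.5 and 22.9 in 2D (exact permutation p = 1). KDM3A and KDM3B made 10.9, 13.3 and 13.0 FPKM in 3D, against 11.7, 13.2 and 14.8 in 2D (exact permutation p = 0.5). KDM5A and KDM5B made 9.44, 11.9 and 13.5 FPKM in 3D, against 10.2, 11.8 and 12.3 in 2D (exact permutation p = 0.9). KDM2A and KDM2B made 13.1, 15.2 and 14.6 FPKM in 3D, against 13.1, 11.7 and 14.5 in 2D (exact permutation p = 0.3). All 10 genes together stood at 66.2 ± 9.21 FPKM in 3D and 69.0 ± 4.16 in 2D (SD, n = 3 each, exact permutation p = 0.8). With median-ratio scaling the log2 difference of this total was -0.25 in place of -0.07, with no overlap (exact permutation p = 0.1), so whether the total differed depends on the scaling. FPKM adds transcripts of genes, and enzymes with equal transcript levels need not be equally abundant or active.

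**Figure D4:**
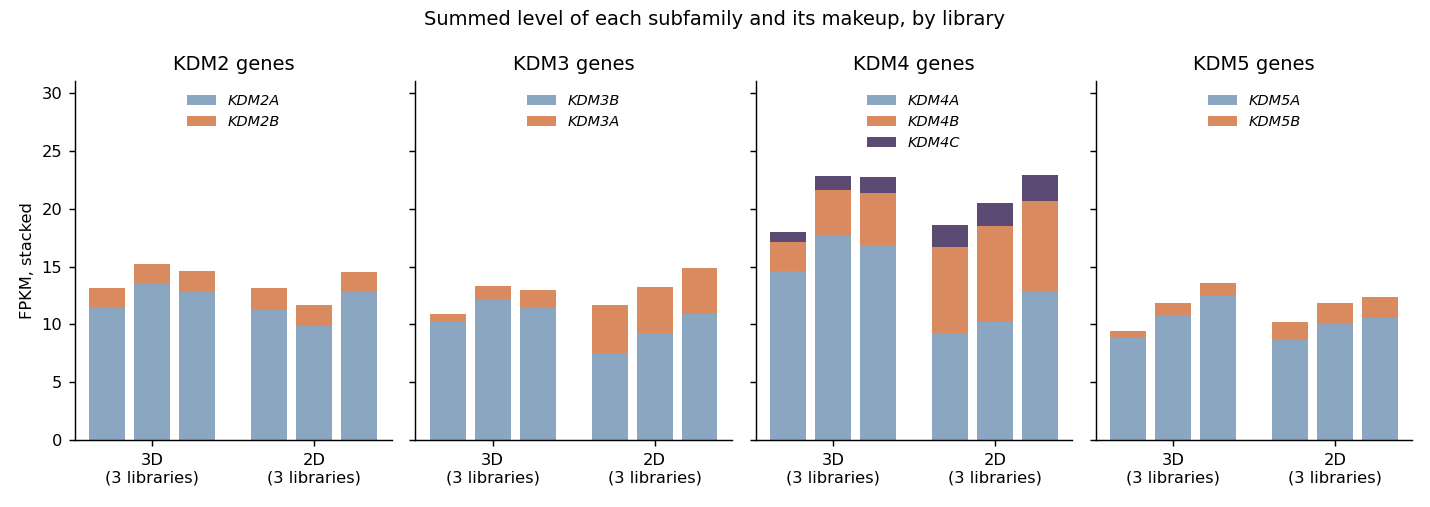
FPKM of the KDM2, KDM3, KDM4 and KDM5 genes stacked by subfamily in every library, 3 libraries of 3D on the left and 3 of 2D on the right of each panel, on a shared axis from 0. The heights overlap between the groups in each of these 4 subfamilies, while the orange segments of KDM3A and KDM4B and the purple one of KDM4C are thinner in the 3D libraries.

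The order of the levels by FPKM, which depends on the gene lengths used, differed accordingly. In 3D it was KDM4A, KDM2A, KDM3B, KDM5A, KDM6B, KDM4B, KDM2B, KDM4C, KDM3A and KDM5B, from 16.4 to 0.925 FPKM. Neighbours whose values overlapped were KDM2A and KDM3B, KDM3B and KDM5A, KDM6B and KDM4B, KDM4C and KDM3A, and KDM3A and KDM5B. In 2D it was KDM2A, KDM4A, KDM6B, KDM5A, KDM3B, KDM4B, KDM3A, KDM4C, KDM2B and KDM5B, from 11.3 to 1.65 FPKM. There the first 5 each overlapped the next, as did KDM4C with KDM2B and KDM2B with KDM5B, and only KDM4B with KDM3A and KDM3A with KDM4C were apart. KDM4A made up 24.9 ± 1.48% of the summed FPKM of the 10 genes in 3D and 15.6 ± 1.79% in 2D (SD, n = 3 each). KDM4B made up 5.39 ± 0.9% in 3D and 11.4 ± 0.78% in 2D, and KDM3A 1.65 ± 0.477% in 3D and 5.88 ± 0.54% in 2D.

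The list of other lysine demethylase genes also held calls in both directions, but the genes called higher were only RIOX1 and RIOX2. Of 14 on that list 9 were tested, of which 2 rose, 2 fell and 5 did not pass, with a median log2 change of 0.11. Of all genes tested, 51.4% were called, 33.3% higher and 18.1% lower, with a median of 0.14. In its calls and median this list thus stood near all genes. Only 1 was called lower without 2D replicate 2, without 2D replicate 3 or when low values were not filtered. RIOX1, a nucleolar JmjC oxygenase that hydroxylates a ribosomal protein, had 31.7, 25.3 and 22.3 FPKM in 3D, against 9.39, 9.25 and 8.76 in 2D (log2 change 1.42, SE 0.13, limma adjusted p = 0.000407). Its relative RIOX2 rose as well, to 2.74 ± 0.483 FPKM in 3D against 1.28 ± 0.109 in 2D. KDM7A, which acts on H3K9 and H3K27, had 1.53, 2.4 and 3.57 FPKM in 3D, against 6.55, 6.06 and 9.03 in 2D (log2 change -1.25, SE 0.23, limma adjusted p = 0.00416). The other gene that fell was KDM5C, the X-linked relative of KDM5A, named after its values were seen (6.84 FPKM in 3D and 9.25 in 2D on average). KDM4D and KDM6A were under the filter, and KDM4E was listed at 0 in every library. Among 6 tested JmjC genes that are not known mainly as lysine demethylases, 3 rose and 1 fell, beside the same 33.3% and 18.1%. Only 2 were called higher with median-ratio or upper-quartile scaling, or when low values were not filtered. The same held without 3D replicate 1, without 3D replicate 2, or when any single 2D library was left out. JMJD6, a lysyl hydroxylase of splicing factors, fell to 6.23 ± 0.636 FPKM in 3D against 11.7 ± 0.316 in 2D, while HSPBAP1 rose (log2 change 0.62), as did HIF1AN, an asparaginyl hydroxylase that restrains HIF (0.46).

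Genes for the enzymes that write the same marks are set beside the 33.3% of all genes tested that were called higher and the 18.1% called lower. All 6 tested H3K4 methyltransferase genes on the list rose, with a median log2 change of 0.66. Only 4 of the 6 were called higher without 3D replicate 2, without 2D replicate 1 or without 2D replicate 2. Without 3D replicate 3 there were 5, and when low values were not filtered 5 of 7. SETD1B and SETD1A, catalytic subunits of the COMPASS complexes, had 5.4 ± 0.344 and 17.3 ± 0.806 FPKM in 3D, against 2.13 ± 0.342 and 8.48 ± 0.871 in 2D, and SETD7 had a log2 change of 0.63. Of 5 tested H3K9 methyltransferase genes, 4 rose and none fell, with a median of 0.53, but without 2D replicate 2 only 2 of the 5 were called higher. SUV39H2 had 6.05 ± 0.532 FPKM in 3D against 2.54 ± 0.31 in 2D, and EHMT1 and SUV39H1 had log2 changes of 0.53 and 0.79. Of 5 H3K36 methyltransferase genes, 2 rose (NSD1 and SETD2, log2 changes of 0.70 and 0.47) and none fell, and ASH1L, at 4.75 ± 1.04 FPKM in 3D and 2.94 ± 0.873 in 2D, did not pass. The H3K27 pair split, with EZH2 higher (log2 change 0.48) and EZH1 lower (-0.58). With median-ratio scaling the counts of genes that rose were 4 of 6 for H3K4, 3 of 5 for H3K9 and 2 of 5 for H3K36, and 1 H3K36 gene was lower. Over all genes that scaling gave 24.5% higher and 24.5% lower. Among 7 tested partners of KDM2B in its Polycomb complex, USP7 rose (log2 change 0.31) and PCGF1 fell (-0.71), and 5 did not pass, SKP1 among them (log2 change -0.39). Without 3D replicate 2 none was called higher, and without 2D replicate 2 there were 2 called lower. With median-ratio scaling none of these partners was higher and 4 were lower.

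Of 18 hypoxia targets 16 fell and none rose, with a median log2 change of -1.63. Among all genes tested, 18.1% fell and 33.3% rose, with a median of 0.14. P4HA1, HILPDA and ENO2 stood at 14.4 ± 2.39, 8.4 ± 2.52 and 3.58 ± 1.32 FPKM in 3D, against 89.6 ± 10.2, 87.2 ± 4.09 and 42.8 ± 6.02 in 2D (SD, n = 3 each). KDM3A and KDM4B, given above, moved the same way as these genes, and whether they share a cause was not tested. Of 14 genes for enzymes that make or use 2-oxoglutarate, succinate and fumarate, 7 rose and 1 fell, with a median log2 change of 0.29. These counts stand beside the same shares of all genes. OGDH, which consumes 2-oxoglutarate, had 26.6 ± 2.34 FPKM in 3D and 15.3 ± 1.48 in 2D, and IDH3A, which makes it, had 2.65 ± 0.383 in 3D and 1.29 ± 0.0221 in 2D. The gene that fell was IDH2, the mitochondrial NADP-dependent isocitrate dehydrogenase, at 14.98 ± 1.59 FPKM in 3D and 35.3 ± 3.41 in 2D. With median-ratio scaling 5 of the 14 were higher and 2 lower, where 24.5% of all genes were higher and 24.5% lower.

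**Figure D5:**
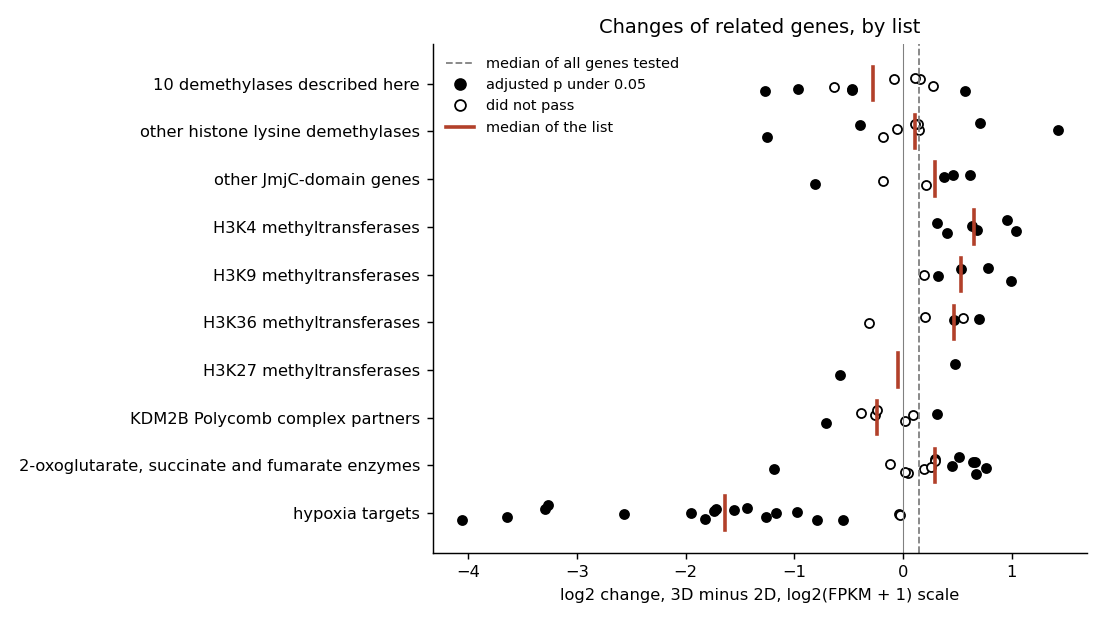
Log2 change, 3D minus 2D, of every tested gene on each list, with filled points for an adjusted p under 0.05, a red bar at the median of the list and a dashed line at the median of all genes tested (0.14). The H3K4 and H3K9 methyltransferase genes lie to the right of 0, the hypoxia targets to the left, and the demethylase lists on either side.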

How the data were processed

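Poly(A)-enriched RNA, extracted with TRIzol per the labels' protocols, was sequenced in 3 libraries of 3D and 3 of 2D culture. The authors deposited FPKM values per Ensembl gene, 1 column per library. FastQC, fastp, HISAT2, StringTie, edgeR and GRCh38 are named, without roles, per the submitters' processing notes. Neither the annotation release nor the strand setting of the counting is given in the sources used here, and the gene lengths worked out from the values exceed the GENCODE 29 exon lengths for all 10 members.

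Whole reads were worked out from the values as FPKM times gene length divided by the worth of 1 read, within 0.01 reads, for 33242 of 33243 genes above 0. Genes that reached 1 FPKM in 3 or more libraries were compared on log2(FPKM + 1) with limma 3.58.1 (trend and robust, R 4.3.3), adjusted by Benjamini-Hochberg over all 12843 genes tested. The procedure was also run on simulated data in which far fewer genes changed than were called here. That run does not speak to the choice of scaling. Sums and ratios were tested with exact 2-sided permutation tests over libraries. Symbols were matched through a name table, positions come from GENCODE 29, and promoter windows from RefSeq GRCh38.p14. No protein sequences were used here. Replicates differed by more than sampling noise, with a chi-square of 12.9 to 28.7 for each degree of freedom. Read counts carry no molecular identifiers, so depth speaks of counting error only.

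The members and gene lists were chosen with earlier results of these data known. Named genes are the 10 members and from each list the 3 tested genes whose adjusted p was smallest; others were chosen after their values were seen. The alternatives were another pseudocount, other low-value filters, other scalings, another variance model, voom, a replicate block and leaving out each library.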

Additional observations from a re-analysis of the deposited data

How the results depend on the processing

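KDM4A and KDM4B kept their direction and call in all 14 alternatives (log2 changes of 0.40 to 0.69 and -1.15 to -0.77), and KDM3A and KDM4C in the 13 that tested them (-1.91 to -1.11 and -0.78 to -0.38). KDM5B lost its call in 3 alternatives, KDM6B gained one in 4, and KDM3B gained one without 2D replicate 3 (limma adjusted p = 0.0452). The uncalled changes of KDM2A (-0.015 with median-ratio scaling) and KDM5A (-0.058 with median-ratio and -0.041 with upper-quartile scaling) turned in sign. With a minimum mean of 5 FPKM, 1909 genes were higher and 1209 lower over all genes, 2 members were lower, and 15 genes of the other lists were higher, fewer genes being tested. Summed log2 levels with median-ratio scaling were -0.15 for the KDM4 genes, -0.27 for KDM3, -0.055 for KDM2 and -0.25 for all 10, and with upper-quartile scaling -0.26 for KDM3, -0.037 for KDM2 and -0.23 for all 10, while the median of all genes tested, 0.14 as reported, was 0.021 with upper-quartile and 0.0067 with median-ratio scaling. Leaving out each library gave 3475 to 4065 genes higher and 1947 to 2182 lower, 1 to 2 members higher and 3 to 5 lower, 19 to 26 and 21 to 22 genes of the other lists, log2 ratio differences of 0.18 to 0.43 for KDM2A to KDM2B, -2.51 to -1.98 for KDM3A to KDM3B, -1.93 to -1.60 for KDM4B to KDM4A, -1.50 to -1.31 for KDM4C to KDM4A and -1.09 to -0.86 for KDM5B to KDM5A, and summed log2 differences of 0.05 to 0.20 for KDM2, -0.18 to -0.00 for KDM3, -0.04 to 0.15 for KDM4, -0.11 to 0.15 for KDM5, -0.92 to -0.40 for KDM6B and -0.14 to 0.05 for all 10. Whether the replicate numbers pair the libraries could not be decided. Deviations of same-numbered libraries correlated at 0.084, -0.017 and 0.184 across genes, and not every library correlated best with its own number. Correlations this small among 3 libraries a group cannot settle it. With the replicate block the same 5 members were called, 1 higher and 4 lower, beside 4291 genes higher and 2382 lower over all genes, while 1 H3K36 methyltransferase gene (0 without the block) and 2 KDM2B partners (1 without it) were lower.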
